A study of Mus musculus with 171 samples.

Results

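A set of 58 imprinted genes was followed through single cells of mouse embryos that lacked Stat3 and of wild-type embryos. The genes were taken from a list of symbols and matched to the rows of the deposited count table by Ensembl identifier. A gene was called measured where at least 10 cells held 10 or more counts, which kept 35 of the 58 genes, against 12912 of all 49671 rows of the table. Of the 25 paternally expressed genes 14 were measured, of the 32 maternally expressed genes 20, and Zfp64, with no allele assigned here, was measured as well. The alleles are labels from earlier knowledge. For all measured maternally expressed members but Cdkn1c, Phlda2, Meg3, Rian and Mirg, imprinting is listed as limited to an isoform or tissue. Among the measured paternally expressed members this holds for Inpp5f alone. Counts and medians of these classes are therefore not of like sets. Cdkn1c passed with exactly 10 cells, and Calcr stood just outside with 9.

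Imprinted genes are transcribed mainly from the chromosome of one parent, because a mark of DNA methylation laid down in the egg or the sperm survives in the embryo. Many lie in clusters under a shared control region, and several act on fetal or placental growth. Shortly after fertilization most methylation is erased, and the imprints are kept by the zinc finger protein ZFP57 with its partner TRIM28 and by the maintenance methyltransferase DNMT1. The deposited counts do not separate the alleles, so every value here is the sum of both parental copies.

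Stat3 -/- embryos (MUT) and Stat3 +/+ embryos (WT) were compared in the epiblast (EPI), the future fetus, in the primitive endoderm (PrE), the future yolk sac endoderm, and in the inner cell mass (ICM) from which both arise. STAT3 is the transcription factor downstream of the cytokine LIF. The groups at E3.75 (embryonic day) were MUT EPI (9 cells of 4 embryos), WT EPI (19 cells of 3 embryos), MUT PrE (14 cells of the same 4 embryos) and WT PrE (10 cells of the same 3 embryos), and at E3.5 they were MUT ICM (55 cells of 5 embryos) and WT ICM (64 cells of 5 embryos). The titles place EPI and PrE cells at E3.75 while their source label says E3.5, and the titles are followed here. The sources name neither the strain nor how the Stat3 allele was made.

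Cells of 1 embryo are not replicates, so counts were summed per embryo and lineage. The 24 sums held 8117787 to 122331780 counts, and MUT embryo 2 had a single EPI cell and WT embryo 3 a single PrE cell. Levels are in CPM, the count of a gene scaled to the total of its sum with TMM factors. Stat3 itself averaged 8.76 ± 12.3 CPM in MUT EPI and 133 ± 42.5 in WT EPI, 12.7 ± 5.79 in MUT PrE and 91.5 ± 59.2 in WT PrE, and 6.28 ± 5.57 in MUT ICM and 70.7 ± 25.02 in WT ICM (SD over embryos), and in no lineage did the genotypes overlap. At E3.75 all 4 MUT embryos but only 1 of 3 WT embryos were male by their Y-linked counts, and a letter in the titles, whose meaning is not given, was A or B in MUT embryos and A or C in WT embryos. Genotype, sex and letter therefore coincide largely at that stage, and stage and letter coincide fully. At E3.5 MUT embryo 23 was male and MUT embryos 2, 10, 18 and 24 were female. WT embryos 13, 16 and 20 of E3.5 were male, and 21 and 22 female. Stage and sex therefore coincide largely in MUT embryos, and no comparison of stages was fitted with sex. Genotype and sex are also unbalanced in the ICM.

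Markers of the lineages fitted the labels of most cells. The summed level of 9 PrE markers was 2419 to 3890 CPM in MUT PrE, 1166 to 3517 in WT PrE, and at most 219 in any EPI sum. The summed level of 8 EPI markers was 1138 to 2656 CPM in MUT EPI, 2647 to 3185 in WT EPI, 349 to 993 for the ICM of MUT embryos and 2169 to 2993 for that of WT embryos. One cell went against its label. Cell 7 of WT embryo 1, labelled PrE, held 9993 CPM of 8 trophectoderm markers, among them 99.4 CPM of Cdx2, 204 of Gata3 and 141 of Elf5, against 188 CPM of PrE markers. In 1 other of the 52 cells at E3.75, cell 4 of the same embryo, EPI markers (2066 CPM) exceeded those of its own lineage (1659 CPM). Elsewhere the trophectoderm markers summed to 116 to 658 CPM in MUT EPI, 81.6 to 270 in WT EPI, 141 to 1111 in MUT PrE, 179.99 to 549.97 for the ICM of MUT embryos and 247 to 499.5 for that of WT embryos. In both MUT groups of E3.75 Cdx2, Gata3, Krt7 and Elf5 averaged under 1 CPM. Cdx2, Krt7 and Elf5 also did so in WT EPI, MUT ICM and WT ICM. The other markers of the list were present in both MUT groups. Krt8, Krt18, Eomes and Tfap2c averaged 207, 101, 28.6 and 19.98 CPM in MUT EPI. In MUT PrE they averaged 356, 120, 38.7 and 2.54 CPM. Many results that use WT PrE are therefore given with and without cell 7, a choice made after seeing the data. Where no value without it is printed, cell 7 is included. That cell carried 74.7% of all WT PrE counts of Pon2, 67.9% of those of Igf2 and 44.6% of those of Slc38a4, but 5.67% of those of Snrpn.

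The 23 genes that were not measured came mostly from a few clusters. In the Peg10 cluster Peg10, Sgce, Asb4 and Calcr fell short, in the Kcnq1 cluster Kcnq1, Slc22a18 and Ascl2, in the Snrpn cluster Ndn, Magel2 and Mkrn3, and around Igf2r Airn, Slc22a3 and Slc22a2. The others were H19, Plagl1, Nnat, Dlk1, Peg13, Kcnk9, Dcn, Zim1, Klf14 and Rasgrf1. Magel2, Kcnq1, Dcn, Klf14, Slc22a3 and Slc22a2 had no cell with 10 counts. H19, the noncoding RNA next to Igf2 that is known from trophectoderm and placenta, reached 120.0 CPM in WT PrE embryo 1, and 99.8% of its WT PrE counts came from the cell with trophectoderm markers.

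Promoter windows are shown for 4 genes, Snrpn, Igf2 and Cobl because they carry the clearest differences between lineages and Mcts2 because its promoter lies inside another member, H13. The windows run from 250 bases before to 50 after a RefSeq start (GRCm38.p6), and capitals mark the motif TGCCGC or its complement GCGGCA, the letters to which ZFP57 binds when they are methylated. Snrpn is at chr7:60005150-60005449 (minus strand), Mcts2 at chr2:152686898-152687197 (plus), Igf2 at chr7:142661222-142661521 (minus) and Cobl at chr11:12464911-12465210 (minus).
Snrpn: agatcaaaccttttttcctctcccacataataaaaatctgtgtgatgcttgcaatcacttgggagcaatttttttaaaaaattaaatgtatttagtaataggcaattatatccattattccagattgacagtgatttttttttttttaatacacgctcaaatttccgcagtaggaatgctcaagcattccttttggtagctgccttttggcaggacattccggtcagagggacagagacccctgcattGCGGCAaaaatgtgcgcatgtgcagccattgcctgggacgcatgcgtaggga
Mcts2: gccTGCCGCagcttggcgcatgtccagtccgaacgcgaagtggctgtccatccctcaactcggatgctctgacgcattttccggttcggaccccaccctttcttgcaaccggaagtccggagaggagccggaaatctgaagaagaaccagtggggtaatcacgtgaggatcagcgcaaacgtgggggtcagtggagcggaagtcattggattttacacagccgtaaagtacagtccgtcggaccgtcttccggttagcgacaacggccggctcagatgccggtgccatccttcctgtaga
Igf2: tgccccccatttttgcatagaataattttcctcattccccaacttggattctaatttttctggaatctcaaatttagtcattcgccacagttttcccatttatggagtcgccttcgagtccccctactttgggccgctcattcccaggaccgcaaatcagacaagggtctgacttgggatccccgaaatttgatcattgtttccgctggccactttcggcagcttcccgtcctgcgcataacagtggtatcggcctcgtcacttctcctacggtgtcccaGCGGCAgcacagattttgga
Cobl: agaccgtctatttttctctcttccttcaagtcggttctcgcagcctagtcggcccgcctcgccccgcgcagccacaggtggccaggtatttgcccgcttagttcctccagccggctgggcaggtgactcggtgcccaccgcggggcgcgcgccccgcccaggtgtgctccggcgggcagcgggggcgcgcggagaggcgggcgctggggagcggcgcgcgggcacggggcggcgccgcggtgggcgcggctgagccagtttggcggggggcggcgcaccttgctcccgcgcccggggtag
The windows shown for Snrpn, Mcts2 and Igf2 each held 1 motif, and that of Cobl held 0, although it was the richest of the 4 in CpG, with 42 against 7, 25 and 14. Snrpn and Igf2 have 4 windows each, and the one with the motif is shown, while the other 3 of each gene held 0. Cobl has 2 windows, both with 0, and Mcts2 has 1. The motif, counted on both strands, was in 11 of the 48 windows of the 29 members that were matched (22.9%) and in 3813 of all 32851 windows (11.6%). Per gene, 10 of the 29 matched members had it, 5 of them among the 11 matched paternally expressed members. The maternally expressed Commd1, Copg2, Grb10, Meg3 and Pon3 had it as well. A share per gene over all genes was not computed, and a gene with more windows has more chances to hold the motif. A match of letters is a description of the sequence and no sign of binding.

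Per kilobase of exon, Snrpn was the most abundant member, at 91.9 CPM per kb averaged over the 6 groups. Snrpn (ENSMUSG00000102252, chromosome 7, 59982495 to 60140219, minus strand, mm10) encodes SmN, a core protein of spliceosomal particles. Nap1l4, a histone chaperone gene of the Kcnq1 cluster, followed at 44.1 CPM per kb, then Mcts2, a retrogene of a translation factor (29.3), Phlda2, a gene that limits placental growth (27.9), and Commd1, a regulator of copper handling (26.2). Usp29 was the lowest, at 0.0444 CPM per kb. Reads of Mcts2 may be shared with its parent gene, and exons of Snrpn, Commd1 and Zrsr1 overlap other genes, so the levels of these genes are uncertain by what the counting assigned to them.

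**Figure D1:**
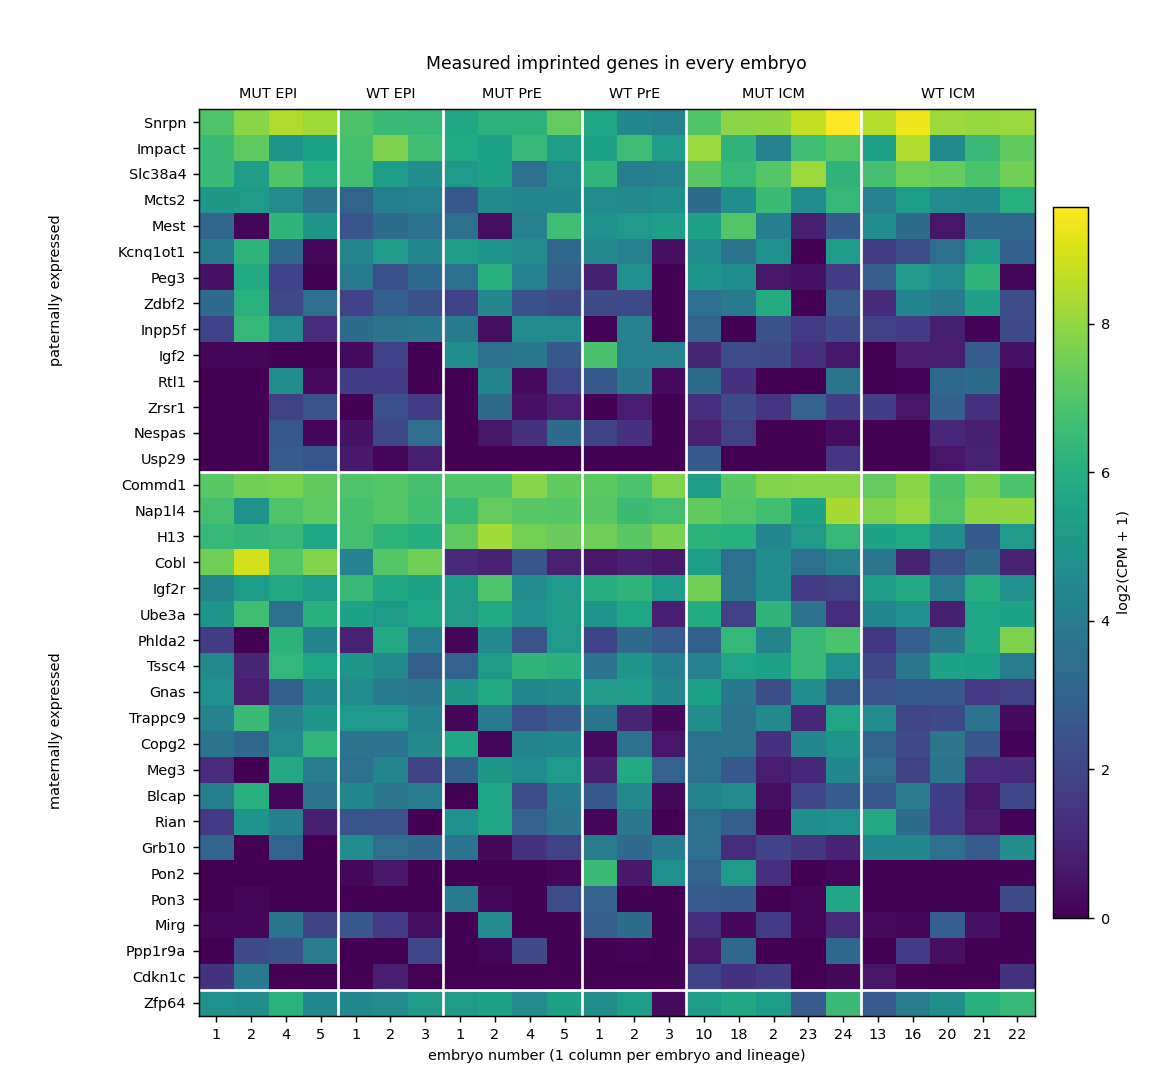
Levels of the 35 measured imprinted genes (rows) in the 24 sums of embryo and lineage (columns), as log2(CPM + 1). Snrpn, Nap1l4 and Commd1 had at least 17.3 CPM in every column, Cobl was high in the EPI columns, and many rows were filled in some embryos and empty in others of the same group.

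Counts of a member were often concentrated in few cells. Over the measured genes, the richest single cell held a median of 35.9% of a gene's counts in MUT EPI, 20.1% in WT EPI, 28.4% in MUT PrE, 41.1% in WT PrE, 23.6% in MUT ICM and 34.1% in WT ICM. Snrpn was an exception, with 10 or more counts in 168 of 171 cells. Cobl had 10 or more counts in 9 of 9 MUT EPI and 17 of 19 WT EPI cells, but in 7 of 14 MUT PrE, 4 of 10 WT PrE, 22 of 55 MUT ICM and 16 of 64 WT ICM cells.

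The highest of the 3 lineages was the same in both genotypes for 21 of the 35 measured genes. In MUT embryos 11 genes were highest in EPI, 12 in PrE and 12 in the ICM, and in WT embryos 12, 9 and 14. Cobl, Ube3a, Trappc9, Copg2, Blcap, Inpp5f, Usp29 and Ppp1r9a had their highest mean in EPI in both genotypes. Igf2, Gnas, H13, Meg3 and Mirg were highest in PrE, and Snrpn, Phlda2, Nap1l4, Commd1, Slc38a4, Mcts2, Zrsr1 and Zfp64 in the ICM. These orders are of means, and few of the differences passed the tests given further on. The same share over all genes was not computed, and the WT PrE means include the trophectoderm-marker cell.

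In EPI, the comparison of genotypes asks which imprinted genes differ in the absence of Stat3 once the lineage is labelled. Snrpn had the smallest p of the members. It had 123, 235, 346 and 298 CPM in MUT EPI of embryos 1, 2, 4 and 5, against 118, 90.5 and 82.3 CPM in WT EPI of embryos 1, 2 and 3. All 4 MUT embryos lay above all 3 WT embryos, although MUT embryo 1 and WT embryo 1 were close. The log2 fold change was 1.37 (SE 0.37), with an unadjusted p of 0.00586 and an adjusted p of 0.341 in edgeR's quasi-likelihood test over all 12298 genes, and it stayed above 0 in all 17 settings (0.72 to 1.95). DESeq2 gave an adjusted p of 0.0250. Within letter A, which is also a comparison among males, MUT embryos 4 and 5 had 346 and 298 CPM and WT embryo 3 had 82.3 CPM (log2 1.95, edgeR adjusted p = 0.865). With sex as a covariate the log2 fold change was 1.61, which sets the MUT embryos against the 1 male WT embryo.

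Commd1 and Grb10 were the other members whose genotypes did not overlap in EPI. Commd1 had 139, 187, 202 and 149 CPM in MUT EPI and 120.3, 128 and 107 CPM in WT EPI (log2 fold change 0.51, SE 0.22, edgeR adjusted p = 1). Grb10, an adaptor that restrains insulin and IGF signalling, had 7.64, 0, 7.51 and 0 CPM in MUT EPI and 23.7, 9.82 and 8.85 CPM in WT EPI (log2 −1.91, SE 2.05, edgeR adjusted p = 1). In all, 3 of 32 tested members did not overlap between the genotypes in EPI, against 7.6% of all genes tested.

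Zdbf2, Igf2r, Cobl and Impact had the next smallest p values in EPI, all with overlapping genotypes. Zdbf2, a zinc finger gene, had 9.25, 68.3, 3.35 and 10.1 CPM in MUT EPI and 2.79, 6.28 and 4.26 CPM in WT EPI, and its highest value is the sum of a single cell. Igf2r, the receptor that clears IGF2, had 19.6, 36.0, 55.0 and 36.4 CPM in MUT EPI and 88.6, 51.8 and 44.4 CPM in WT EPI. Cobl, an actin nucleator, had 181, 489, 132 and 221 CPM in MUT EPI and 18.2, 128 and 184 CPM in WT EPI. Its MUT embryos were higher on average, but MUT embryo 4 lay below WT embryo 3, and within letter A the log2 difference was −0.08. Impact, a regulator of translation under amino acid shortage, had 90.2, 147, 30.3 and 42.6 CPM in MUT EPI and 109, 209.9 and 99.5 CPM in WT EPI.

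Of the 35 measured members Igf2, Pon2 and Pon3 were too low to be tested in EPI. Over the rest, 22 of 32 tested members had a higher fitted level in MUT, with a median log2 fold change of 0.57, beside 52.5% of all genes and a median of 0.04. Paternally expressed members were higher in 9 of 13 (median 0.92) and maternally expressed members in 12 of 18 (median 0.50). No member passed an adjusted p of 0.05 in edgeR, where 0% of all genes did, and 1 passed an unadjusted p of 0.05, against 4.63% of all genes. DESeq2 called 1 member, Snrpn, against 1.58% of all genes, and limma-trend on embryo means called 0 members, against 0% of all genes. The median over the members was above 0 in 16 of the 17 settings, up to 0.71, and was −0.18 with a block on the embryo number, which unrelated MUT and WT embryos share.

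**Figure D2:**
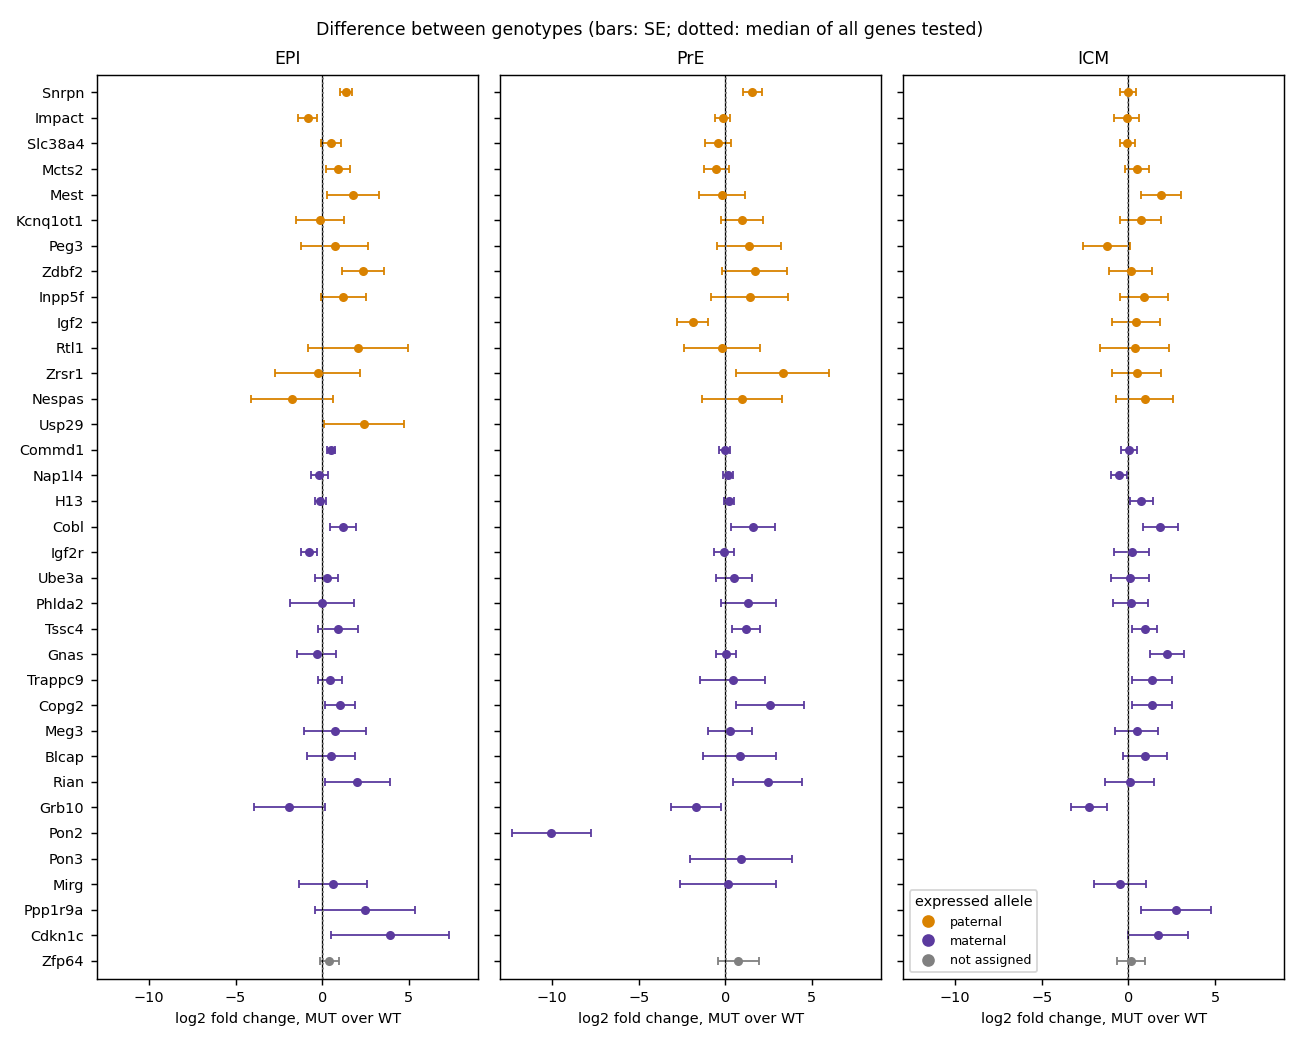
Log2 fold change of MUT over WT for the tested members in EPI, PrE and ICM (points, coloured by the expressed allele, with SE bars from edgeR), and the median of all genes tested (dotted line). Most points lie right of 0 with bars that cross it, Snrpn stands at 1.37 and 1.55 in EPI and PrE and at −0.05 in the ICM, and Pon2 lies far left in PrE.

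In PrE, Snrpn again lay higher in MUT. It had 51.7, 70.5, 70.9 and 154 CPM in MUT PrE and 49.3, 21.1 and 17.3 CPM in WT PrE, so that the lowest MUT embryo lay just above the highest WT embryo. The log2 fold change was 1.55 (SE 0.55), with an unadjusted p of 0.0232 and an edgeR adjusted p of 0.975. Without the cell that carries trophectoderm markers, WT embryo 1 stood at 63.4 CPM, the genotypes overlapped and the log2 fold change was 1.33. Within letter A it was 2.65, from MUT embryos 4 and 5 and the single WT cell of embryo 3. The remaining cells of WT embryo 1 held 2066 and 1662 CPM of EPI markers beside 1659 and 1705 CPM of PrE markers, and Snrpn averaged more in EPI than in PrE in both genotypes. The EPI marker sums as a whole ran the other way, at 56.9 to 149 CPM in MUT PrE and 238 to 1263 CPM in WT PrE. Their part in the difference was not tested.

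Pon2, a paraoxonase that limits oxidative damage (ENSMUSG00000032667, chromosome 6, 5264147 to 5298455, mm10), had few counts in MUT PrE. It had 0, 0, 0 and 8 counts in MUT PrE of embryos 1, 2, 4 and 5, against 2847, 43 and 356 counts in WT PrE of embryos 1, 2 and 3. These are 0, 0, 0 and 0.118 CPM in MUT PrE and 91.3, 0.583 and 27.2 CPM in WT PrE, and the groups did not overlap. The edgeR adjusted p was 0.767, while DESeq2 gave 7.17e-06. Pon2 passed the low-count filter here only through WT PrE, so the direction was set by the filter in both fits. Without the cell that carries trophectoderm markers the WT mean was 15.9 ± 13.8 CPM in place of 39.7 ± 46.6, the groups still did not overlap and the edgeR adjusted p was 0.936. In the ICM the order of genotypes was the opposite, with 17, 735, 2216, 0 and 3 counts in MUT ICM of embryos 2, 10, 18, 23 and 24 and 0, 3, 0, 2 and 0 counts in WT ICM of embryos 13, 16, 20, 21 and 22. The difference between these genotype effects had an edgeR adjusted p of 0.0897, or 0.244 without the cell that carries trophectoderm markers. Pon2 entered that fit through the sums where it was high, in MUT ICM and WT PrE, so its direction is not independent of the filter.

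Igf2 encodes the fetal growth factor that IGF2R clears, and its PrE difference rested on the same WT cell. It had 25.5, 9.90, 13.5 and 5.39 CPM in MUT PrE and 113, 17.1 and 17.5 CPM in WT PrE (log2 −1.88, SE 0.89, edgeR adjusted p = 1). Leaving out the cell that carries trophectoderm markers brought the means to 13.6 ± 8.64 CPM in MUT PrE and 13.4 ± 6.75 CPM in WT PrE, and the log2 fold change was −0.002. The MUT embryos overlapped the WT embryos with and without it.

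Cobl was the third member without overlap in PrE, at 1.18, 0.817, 4.77 and 0.827 CPM in MUT PrE and 0.513, 0.773 and 0.535 CPM in WT PrE, all of them low beside EPI. Its log2 fold change was 1.61 (SE 1.26), or 1.85 without the trophectoderm-marker cell. Tssc4, a gene of the Kcnq1 cluster, had 7.07, 36.1, 76.0 and 66.7 CPM in MUT PrE and 11.5, 32.4 and 16.7 CPM in WT PrE. Copg2, a coatomer subunit gene that overlaps Mest on the opposite strand, had 53.1, 0.0961, 19.2 and 19.9 CPM in MUT PrE and 0.225, 10.97 and 0.459 CPM in WT PrE. Both overlapped between the genotypes, and strand use in the counting is not given, so reads of Copg2 and Mest cannot be told apart where their exons meet.

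Cdkn1c, Ppp1r9a and Usp29 were too low to be tested in PrE, where 22 of 32 tested members had a higher fitted level in MUT, with a median log2 fold change of 0.46, beside 51.7% of all genes and a median of 0.03. The split was 7 of 13 paternally expressed members (median 0.95) and 14 of 18 maternally expressed members (median 0.34). EdgeR called 0 members, against 0% of all genes, and 2 members passed an unadjusted p of 0.05, against 4.63% of all genes. DESeq2 called 1 member, Pon2, against 1.4% of all genes, and limma-trend called 0, against 0% of all genes. No overlap between genotypes was found for 3 of 32 tested members, against 6.68% of all genes. With the trophectoderm-marker cell left out, the median over the members was 0.33 and edgeR again called 0 members. Over 18 settings the median ran from 0.0945 with a block on the embryo number to 2.49 within letter A. Within letter A and with sex as a covariate (median 2.04) the WT side is the single cell of embryo 3, and the medians of all genes were 0.88 and 0.46.

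In the ICM, Gnas and Grb10 had the smallest p values and opposite directions. Gnas, which encodes the stimulatory G protein subunit of hormone receptors, had 3.87, 42.4, 13.7, 25.1 and 6.13 CPM in MUT ICM of embryos 2, 10, 18, 23 and 24, against 4.47, 5.50, 5.20, 2.02 and 2.52 CPM in WT ICM of embryos 13, 16, 20, 21 and 22. Its exons overlap the antisense Nespas, and reads of both cannot be told apart without strand. In 4 of 5 MUT embryos the level exceeded every WT embryo (log2 fold change 2.20, SE 0.98, edgeR adjusted p = 0.735). Without MUT embryo 10, whose PrE marker sum of 2199 CPM was the highest of all ICM sums, the log2 fold change was 1.69. Grb10 had 2.82, 10.03, 1.36, 1.95 and 0.865 CPM in MUT ICM and 21.1, 20.8, 10.2, 5.77 and 25.6 CPM in WT ICM. Only MUT embryo 10 reached into the WT range (log2 −2.29, SE 1.03, edgeR adjusted p = 0.745). Grb10 was thus lower on average in MUT in all 3 lineages, with PrE values of 11.6, 0.144, 1.59 and 2.67 CPM in MUT and 15.6, 8.76 and 14.2 CPM in WT, and passed the threshold in none. Without the trophectoderm-marker cell its PrE means were 4.01 ± 5.18 CPM in MUT and 10.3 ± 3.48 CPM in WT.

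The genotypes also overlapped in the ICM for the other members named by rank. Cobl had 24.6, 39.0, 10.05, 9.88 and 16.8 CPM in MUT ICM and 12.6, 0.918, 4.17, 8.85 and 0.894 CPM in WT ICM, so that only WT embryo 13 reached into the MUT range. Mest, an endoplasmic reticulum protein of the hydrolase fold, had 16.3, 43.5, 126, 0.780 and 5.52 CPM in MUT ICM and 24.8, 9.47, 0.460, 8.55 and 7.94 CPM in WT ICM. Tssc4 averaged 45.0 ± 26.8 CPM in MUT ICM and 23.6 ± 18.4 CPM in WT ICM. Ppp1r9a, the actin-binding protein neurabin, was at 0 to 8.26 CPM in MUT ICM and 0 to 2.20 CPM in WT ICM. Snrpn had 256, 125, 238, 409 and 761 CPM in MUT ICM and 366, 647, 284, 275 and 277 CPM in WT ICM, a log2 fold change of −0.05 (SE 0.46).

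Pon2, Pon3 and Usp29 were too low to be tested in the ICM. Over the rest, 25 of 32 tested members had a higher fitted level in MUT ICM, with a median log2 fold change of 0.46, beside 47.6% of all genes and a median of −0.05. Paternally expressed members were higher in 9 of 13 (median 0.45) and maternally expressed members in 15 of 18 (median 0.61). EdgeR called 0 members, against 0% of all genes, and 2 passed an unadjusted p of 0.05, against 6.64% of all genes. DESeq2 called 0 members, against 0.889% of all genes, and limma-trend 0, against 0.0163% of all genes. For 0 of 32 members the genotypes did not overlap, against 1.56% of all genes. The summed EPI markers were lower in every MUT ICM than in any WT ICM, with Tdgf1 at 247 CPM in MUT ICM and 1713 CPM in WT ICM, while Klf2 averaged 18.1 CPM in MUT ICM and 12.4 CPM in WT ICM and Esrrb 28.6 CPM in MUT ICM and 25.4 CPM in WT ICM. The part of cell composition in the members' differences was not tested.

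Differences between these genotype effects were tested directly. With 35 measured members tested, edgeR called 0 between EPI and PrE, 0 between EPI and ICM and 0 between PrE and ICM, where 0% of all genes passed in each. An unadjusted p of 0.05 was passed by 0, 2 and 2 members, against 5.51%, 9.25% and 9.2% of all genes. The members past it were Pon2 and Snrpn in both comparisons with the ICM. Pon2 had been too low to be tested between genotypes in EPI and in the ICM. It entered these fits through the sums where it was high, so its directions are not independent of the filter. Its estimates of −16.1 for EPI and −19.3 for PrE against the ICM (log2) rest on groups at or near 0 counts. For Snrpn the genotype effect exceeded that of the ICM by 1.41 in EPI (SE 0.65, adjusted p = 0.518) and by 1.64 in PrE (SE 0.72, adjusted p = 0.485, and 1.42 with adjusted p = 0.605 without the trophectoderm-marker cell), both on the log2 scale. That Snrpn differs between genotypes at E3.75 and not at E3.5 is therefore not shown.

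**Figure D3:**
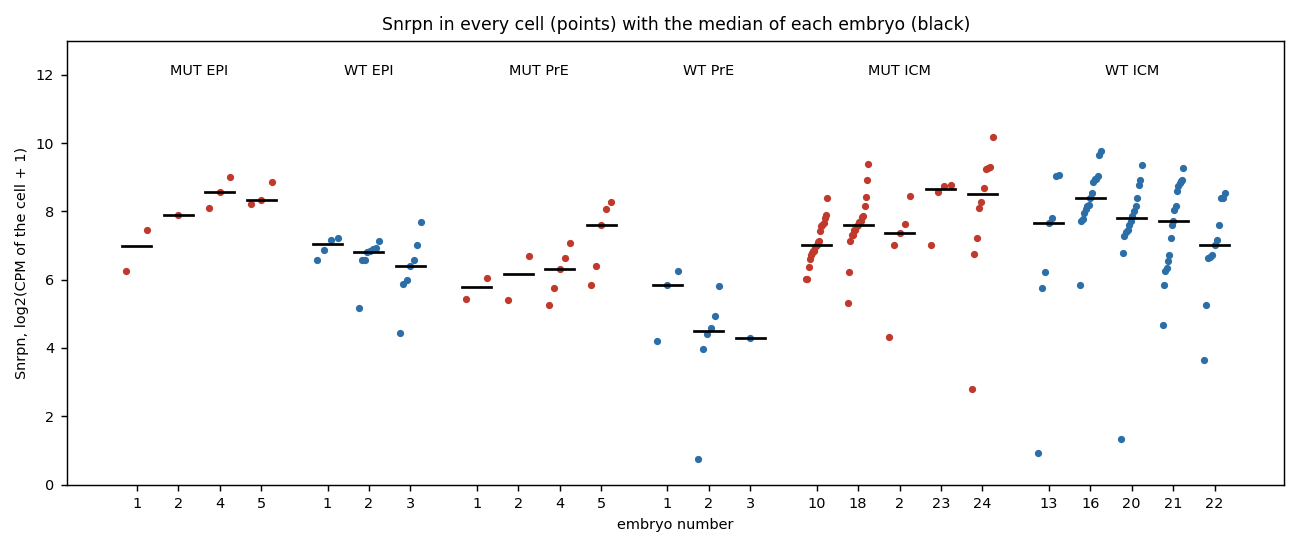
Snrpn in each of the 171 cells as log2(CPM of the cell + 1), by embryo, with the median of each embryo in black. Cells of MUT EPI run from 75.4 to 511 CPM and those of WT EPI from 20.5 to 207 CPM, while MUT PrE cells run from 37.1 to 310.4 CPM and WT PrE cells from 0.693 to 75.2 CPM.

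The median cell had 299 CPM of Snrpn in MUT EPI and 111 in WT EPI, 80.8 in MUT PrE and 21.6 in WT PrE, and 189 in MUT ICM and 228 in WT ICM. The cells of each pair of genotypes overlapped in every lineage.

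Between the lineages of E3.75, Cobl was higher and Igf2 lower in EPI than in PrE of MUT embryos. Cobl (ENSMUSG00000020173, chromosome 11, 12236608 to 12464960, minus strand, mm10) had 181, 489, 132 and 221 CPM in MUT EPI against 1.18, 0.817, 4.77 and 0.827 CPM in MUT PrE of the same embryos, with no overlap. Its log2 fold change was 7.07 (SE 0.84, edgeR adjusted p = 0.00296), or 7.38 with the embryo as a paired block (adjusted p = 0.0393), and the adjusted p was 0.0502 without embryo 1. In WT embryos it had 18.2, 128 and 184 CPM in EPI against 0.513, 0.773 and 0.535 CPM in PrE, again with no overlap. There the log2 fold change was 7.49 (SE 1.02, edgeR adjusted p = 0.125), and 7.71 without the cell that carries trophectoderm markers. Fewer embryos entered the WT comparison, and no difference between the genotypes in this step was detected (interaction log2 −0.44, SE 1.06, adjusted p = 1), which does not show that they are alike.

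Igf2 (ENSMUSG00000048583, chromosome 7, 142650766 to 142666816, minus strand, mm10) was nearly silent in MUT EPI, with 2, 1, 1 and 1 counts in embryos 1, 2, 4 and 5, against 585, 206, 764 and 365 counts in MUT PrE. The groups did not overlap, and the edgeR adjusted p was 0.0363, or 0.134 with the embryo as a paired block. Igf2 passed the low-count filter in MUT only through PrE, so the direction of this call was set by the filter. Its fitted log2 fold change of −7.77 rests on these few EPI counts, and the call was lost without any 1 of the 4 embryos (adjusted p 0.101 to 0.190). In WT EPI it had 11, 270 and 1 counts, against 3526, 1259 and 229 in WT PrE, and on the CPM scale the WT groups did not overlap either (edgeR adjusted p = 0.411). In WT too Igf2 met the low-count filter through PrE and not through EPI alone, so this direction is not independent of the filter. With the trophectoderm-marker cell left out, WT PrE of embryo 1 held 5.64 CPM, still above the highest WT EPI sum at 2.78 CPM.

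Snrpn and H13 did not pass the threshold in edgeR between EPI and PrE in MUT, where DESeq2 called both (adjusted p = 0.00960 for Snrpn and 0.00204 for H13). The log2 fold change of Snrpn in EPI over PrE was 1.54 (SE 0.42, edgeR adjusted p = 0.133) in MUT and 1.73 (SE 0.47, adjusted p = 0.259) in WT, or 1.52 (adjusted p = 0.442) in WT without the trophectoderm-marker cell. H13, described here after its values were seen, encodes signal peptide peptidase. It had 84.0, 77.5, 87.9 and 49.7 CPM in MUT EPI against 146, 299.6, 187 and 167 CPM in MUT PrE, with no overlap (log2 −1.41, SE 0.31, adjusted p = 0.0606). In WT embryos it had 108, 73.0 and 61.9 CPM in EPI against 175, 137 and 199 CPM in PrE, also with no overlap (log2 −1.08, SE 0.29, adjusted p = 0.261, and 0.298 without the trophectoderm-marker cell).

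In MUT embryos edgeR called 2 of 29 tested members between EPI and PrE, against 1.65% of all genes. In WT embryos it called 0 of 31, against 0.0314% of all genes, and 7 passed an unadjusted p of 0.05, against 9.35% of all genes. DESeq2 called 5 members in WT (Cobl, H13, Mest, Pon2 and Snrpn), against 5.92% of all genes, and limma-trend 0, against 0.055%. Pon2 passed the low-count filter there only through WT PrE, so the direction of its call was set by the filter. The trophectoderm-marker cell held 74.7% of its WT PrE counts, and DESeq2 was not run without that cell. Of the 29 members tested in MUT 14 were higher in EPI (median log2 −0.04, against 0.02 for all genes), and of the 31 tested in WT 19 (median 0.14, against 0.03, and 0.46 without the trophectoderm-marker cell).

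**Figure D4:**
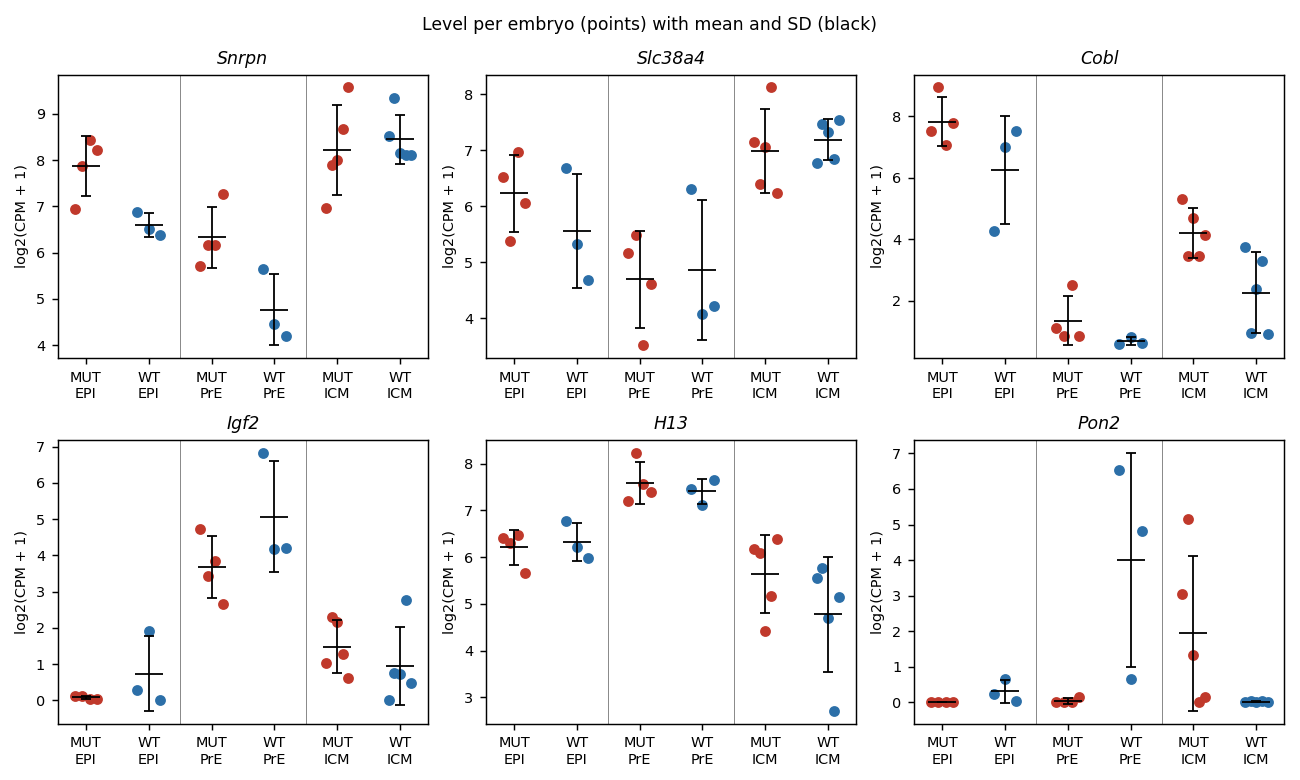
Levels of Snrpn, Slc38a4, Cobl, Igf2, H13 and Pon2 per embryo as log2(CPM + 1), with the mean and SD over embryos in black, for MUT and WT EPI, PrE and ICM. Cobl lies near 0 in PrE and high in EPI, Igf2 and H13 run the other way, and Snrpn and Slc38a4 are highest in the ICM. Slc38a4 and H13 were added after their values were seen.

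Between the stages, Snrpn was lower in PrE than in the ICM of WT embryos. It averaged 29.2 ± 17.5 CPM in WT PrE, against 369.8 ± 159 CPM in WT ICM, with no overlap (log2 −3.65, SE 0.51, edgeR adjusted p = 0.0260). Without the cell that carries trophectoderm markers the log2 fold change was −3.43 (adjusted p = 0.0430), and the adjusted p ran from 0.0239 to 0.144 with 1 embryo left out at a time and exceeded 0.05 without WT embryo 16 or 20 of E3.5 or WT embryo 2 or 3 of E3.75. WT EPI averaged 96.8 ± 18.4 CPM, also below every WT ICM embryo (log2 −1.92, SE 0.37, adjusted p = 0.0619). In MUT embryos PrE averaged 86.8 ± 45.8 CPM and EPI 250.5 ± 96.5 CPM, against 358 ± 247 CPM in the ICM (log2 −2.03, SE 0.54, adjusted p = 0.142 for PrE, and −0.53, SE 0.52, adjusted p = 0.902 for EPI).

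Cobl was higher in EPI than in the ICM of MUT embryos. It averaged 255 ± 160 CPM in MUT EPI against 20.1 ± 12.2 CPM in MUT ICM, with no overlap (log2 3.67, SE 0.57, edgeR adjusted p = 0.0478). This call was near the threshold and was lost without any one embryo other than MUT embryo 10 of E3.5 (adjusted p 0.0257 to 0.178). The MUT embryos of E3.75 were male and those of E3.5 female except embryo 23, so stage and sex cannot be told apart there. WT EPI averaged 109.9 ± 84.3 CPM against 5.48 ± 5.13 CPM in WT ICM, with no overlap (log2 4.30, SE 1.03, adjusted p = 0.0958). Cobl was low in PrE, and the log2 fold change of PrE over the ICM was −3.41 (SE 1.11, adjusted p = 0.243) in MUT and −3.18 (SE 1.66, adjusted p = 0.413) in WT.

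Pon2 was called between WT PrE, with 2847, 43 and 356 counts, and WT ICM, with 5 counts in all 5 embryos (edgeR adjusted p = 0.0445). It passed the low-count filter here only through WT PrE, so the direction of this call was set by the filter. Without the cell that carries trophectoderm markers the log2 fold change was 10.22 in place of 11.45 and the adjusted p 0.0659. The call was also lost with any 1 embryo left out (adjusted p 0.0513 to 0.131). Slc38a4, an amino acid transporter described after its values were seen, had 34.7, 44.1, 10.4 and 23.6 CPM in MUT PrE against 132, 139.9, 83.7, 277 and 74.3 CPM in MUT ICM, with no overlap (log2 −2.33, SE 0.56, adjusted p = 0.102). In WT it averaged 37.3 ± 35.6 CPM in PrE against 149 ± 35.9 CPM in the ICM (adjusted p = 0.180), while leaving out the cell with trophectoderm markers gave a log2 fold change of −2.69 (adjusted p = 0.0430). H13 averaged 199.8 ± 68.6 CPM in MUT PrE against 55.3 ± 26.4 CPM in MUT ICM (log2 1.84, SE 0.46, adjusted p = 0.115), and 170.5 ± 31.4 CPM in WT PrE against 32.9 ± 18.8 CPM in WT ICM (log2 2.40, SE 0.61, adjusted p = 0.127, and 0.140 without the trophectoderm-marker cell).

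EdgeR called 1 of 32 members between EPI and ICM in MUT, against 0.0682% of all genes, and 2 of 31 between PrE and ICM in WT, against 0.349%. Between EPI and ICM in WT it called 0 of 33, against 0.308% of all genes, with 5 past an unadjusted p of 0.05, against 14.1%. There DESeq2 called 4 members (Cobl, Gnas, Nap1l4 and Snrpn), against 8.65% of all genes, and limma-trend 13, against 29% of all genes. Between PrE and ICM in MUT edgeR called 0 of 32, against 0.507% of all genes, with 5 past an unadjusted p of 0.05, against 9.46%. DESeq2 called 4 there (Cobl, H13, Slc38a4 and Snrpn), against 5.01% of all genes, and limma-trend 1 (H13), against 5.23%.

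Some neighbours in a cluster had their highest mean in the same lineage and others did not, which was not tested. Meg3 and Mirg were highest in PrE and Phlda2 and Nap1l4 in the ICM in both genotypes. Next to Cobl on chromosome 11, Grb10 was lower on average in MUT than in WT EPI, at 3.79 ± 4.37 and 14.1 ± 8.33 CPM, while Cobl was higher on average, at 255 ± 160 and 109.9 ± 84.3 CPM. H13 and Mcts2, which lies in an intron of H13 and is expressed from the other parental allele, differed in the lineage of their highest mean, PrE for H13 and ICM for Mcts2. Mcts2 had 33.3, 36.0, 23.7 and 11.9 CPM in MUT EPI against 7.48, 16.4 and 17.6 CPM in WT EPI, and the genotypes overlapped.

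In the Dlk1-Meg3 cluster, the maternally expressed noncoding RNAs Meg3, Rian and Mirg and the paternally expressed Rtl1 were all low and uneven. Meg3 averaged 25.5 ± 13.7 CPM in MUT PrE and 21.04 ± 29.8 CPM in WT PrE, and 7.76 ± 8.38 CPM in MUT ICM and 5.46 ± 5.19 CPM in WT ICM. Rian ran from 7.12 to 50.4 CPM in MUT PrE and from 0 to 13.4 CPM in WT PrE. In edgeR no gene of this cluster passed the threshold in any comparison, while limma-trend called Meg3 between EPI and ICM in WT (adjusted p = 0.0213). In that limma-trend fit 29% of all genes were called, and the median log2 fold change of all genes was 0.68.

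In the Kcnq1 cluster, Nap1l4 had similar means in EPI and PrE and its highest means in the ICM, at 101 ± 51.3 CPM in MUT EPI and 113 ± 15.01 in WT EPI, 126 ± 28.2 in MUT PrE and 111 ± 20.5 in WT PrE, and 149 ± 103 in MUT ICM and 219.6 ± 54.3 in WT ICM. Phlda2 of the same cluster varied far more between embryos, from 6.78 to 114 CPM in MUT ICM and from 1.90 to 213 CPM in WT ICM. Kcnq1ot1, the paternally expressed antisense RNA that silences the cluster, averaged 24.3 ± 33.5 CPM in MUT EPI and 26.4 ± 10.3 CPM in WT EPI. Ube3a, a ubiquitin ligase gene of the Snrpn cluster whose maternal expression is known from neurons, averaged 51.2 ± 39.2 CPM in MUT EPI and 43.1 ± 6.09 CPM in WT EPI.

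The remaining measured members were uneven between embryos. Peg3, a zinc finger gene known for its part in maternal care and growth, ran from 0.0294 to 56.8 CPM in MUT EPI and from 4.06 to 14.1 CPM in WT EPI, and from 0.390 to 30.6 CPM in MUT ICM and from 0.0832 to 76.0 CPM in WT ICM. Usp29, its neighbour, was at 0 to 5.73 CPM in MUT EPI and 0.134 to 0.733 CPM in WT EPI, and near 0 in PrE, at most 0.0177 CPM in MUT and 0.0321 CPM in WT.

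Trappc9, a subunit gene of a vesicle tethering complex next to Peg13, averaged 40.2 ± 34.9 CPM in MUT EPI and 29.1 ± 9.18 CPM in WT EPI, and 6.01 ± 5.76 CPM in MUT PrE and 4.40 ± 6.67 CPM in WT PrE. Its log2 fold change of EPI over PrE was 2.75 (SE 1.19, edgeR adjusted p = 0.470) in MUT and 2.73 (SE 1.49, adjusted p = 0.744) in WT. The trophectoderm-marker cell held 53.8% of the WT PrE counts of Trappc9, and without it WT PrE averaged 2.49 ± 3.36 CPM. Inpp5f, a phosphoinositide phosphatase gene, averaged 27.3 ± 37.4 CPM in MUT EPI and 11.7 ± 2.13 CPM in WT EPI, and ran from 0.047 to 7.74 CPM in MUT ICM and from 0.0709 to 3.72 CPM in WT ICM. Blcap, beside Nnat, averaged 23.4 CPM in MUT EPI and 16.5 CPM in WT EPI, and 10.4 CPM in MUT ICM and 5.35 CPM in WT ICM.

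Pon3, a paraoxonase gene next to Pon2, had 578 counts in MUT PrE, 321 of them in embryo 1 and 254 in embryo 5, and 221 counts in WT PrE, all in embryo 1. In the ICM it had 2339 counts in MUT and 179 in WT, of which WT embryo 22 held 174. In each group most counts of Pon3 came from 1 to 3 embryos. Cdkn1c, an inhibitor of the cell cycle, was at 0 in all PrE sums and at most 14.3 CPM in MUT EPI and 0.783 CPM in WT EPI. Zfp64 averaged 35.5 ± 21.5 CPM in MUT EPI and 26.7 ± 7.74 CPM in WT EPI. Zrsr1 averaged 3.25 ± 2.33 CPM in MUT ICM and 2.30 ± 2.75 CPM in WT ICM, and Nespas reached at most 9.49 CPM in any MUT sum and 9.95 CPM in any WT sum.

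A list of 14 regulators of imprints, among them Zfp57, Trim28, Dnmt1 and Dppa3, showed no call between the genotypes in edgeR. Its median log2 fold change was 0.24 in EPI, −0.14 in PrE and −0.13 in the ICM. In EPI 9 of the 14 had a higher fitted level in MUT and 5 a lower one. Dnmt3a had the smallest adjusted p of the list there, with 25.2 to 357 CPM in MUT EPI and 3.18 to 12.3 CPM in WT EPI (log2 4.35, SE 1.09, edgeR adjusted p = 0.336). Trim28, the corepressor recruited by ZFP57, was higher in EPI than in PrE of MUT embryos, at 548 ± 239 against 154 ± 58.3 CPM (log2 1.85, SE 0.36, edgeR adjusted p = 0.0407). It was the 1 call of the list there, against 1.65% of all genes. In WT it averaged 347 ± 112 CPM in EPI and 217 ± 91.1 CPM in PrE. No gene of the list was called between EPI and PrE in WT (smallest edgeR adjusted p 0.120). Dnmt3b, a de novo DNA methyltransferase, was higher in PrE than in the ICM, at 1334 ± 393 against 118 ± 75.4 CPM in MUT (log2 3.48, adjusted p = 0.0231) and at 1154 ± 972 against 48.3 ± 7.59 CPM in WT (log2 4.62, adjusted p = 0.0124, and 0.0101 without the cell that carries trophectoderm markers). In each genotype it was the 1 call of the list there, against 0.507% of all genes in MUT and 0.349% in WT. A further list of 19 imprinted genes had 9 tested in EPI, 8 in PrE and 8 in the ICM, with median log2 fold changes of −0.11, 0.62 and 0.56 and no call in edgeR.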

How the data were processed

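Single-cell RNA-seq counts of 171 cells from 17 embryos were analysed. The authors deposited 1 table of raw read counts per gene, and per the submitters' processing notes reads were aligned with STAR to mm10 and counted with HTSeq; versions, the library method and strand use are not stated there. All 171 columns matched a sample title. Of 49671 rows 49412 matched the annotation (GENCODE vM21), and the rest held 0.0101% of counts.

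Counts were summed per embryo and lineage (24 sums). Each comparison was fitted with edgeR 4.0.16 (robust quasi-likelihood test, TMM factors, low genes removed by filterByExpr at a count of 10, two-sided, Benjamini-Hochberg adjustment over all genes tested, threshold 0.05) in R 4.3.3. The standard error is the size of the log2 fold change divided by the root of F. Alternatives were RLE scaling, no filter, DESeq2 1.42.0, limma-trend (limma 3.58.1) on embryo means of log2(CPM of the cell + 1), sums without 7 low-quality cells or without sums of 1 cell, sex or letter terms, embryo blocks, and each embryo left out. DESeq2 was run on the genes that passed the filter. Leaving out the cell with trophectoderm markers was added after seeing the data. Sums held 8117787 to 122331780 counts and cells 163822 to 25095390. Median totals per cell were 3404703 in MUT ICM and 5064704.5 in WT ICM. At E3.75 they were 10407966 in MUT EPI, 11050855 in WT EPI, 11168799 in MUT PrE and 11123514 in WT PrE, so stage and depth coincide. No molecular identifiers are described, so counts are reads and not molecules.

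EPI and PrE sums of E3.75 come from the same embryos, so the numbers pair these samples by animal; correlations of their deviations were 0.064, 0.046, 0.082 and 0.098 in MUT and 0.159, 0.134 and 0.084 in WT. On simulated counts with known changes, the test recovered 23.4% of changes of log2 size 2 and 50% of size 4 in EPI MUT against WT (12298 genes), and 8.25% and 64.2% in the ICM (12270 genes). In PrE it recovered 18.75% and 56.8% (11765 genes). False calls were 8 in EPI, 7 in PrE and 2 in the ICM. Dispersions were taken from their trend over abundance, so the scatter of single genes around that trend is absent. Shares are of the changed genes that passed the filter again.

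The members and lists were chosen with earlier results of these data known. Values in every embryo are given for the 6 members of smallest p in each genotype comparison, for members past the threshold between lineages or stages, for the 5 of highest CPM per kb and for those whose genotypes did not overlap. Promoters are RefSeq windows of 300 bases, matched by symbol for 29 of 35 measured members.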

Additional observations from a re-analysis of the deposited data

Results flagged for a closer look

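In 68 groups of 4 or 5 embryos, 15 held an embryo whose gap to its nearest neighbour passed Dixon's 95% critical value; chance flags about 1 in 20 groups, a rate that does not hold where most embryos are at or near 0. Zdbf2 was set apart in 3 of them, at 68.3 CPM in MUT EPI and 20.6 CPM in MUT PrE of embryo 2 of E3.75, and at 58.6 CPM in MUT ICM of another embryo, numbered 2 at E3.5. The first of these sums was a single cell. Embryo 10 of E3.5 stood high in MUT ICM for Igf2r at 183 CPM and for Grb10 at 10.03 CPM, and its PrE marker sum was the highest of all ICM sums at 2199 CPM. Igf2r was also high in MUT PrE of embryo 2, at 121 CPM.

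Among the WT ICM embryos, Snrpn stood high in embryo 16 at 647 CPM, Ppp1r9a in the same embryo at 2.20 CPM, Igf2 in embryo 21 at 5.87 CPM and Phlda2 in embryo 22 at 213 CPM. Pon2 stood apart in MUT ICM of embryo 18 at 34.7 CPM and in MUT PrE of embryo 5 at 0.118 CPM (8 counts), where the other embryos were at 0 and any count would stand apart. In MUT PrE, embryo 4 was high for Cobl at 4.77 CPM and for Ppp1r9a at 3.68 CPM, and embryo 1 was low for Mcts2 at 5.28 CPM.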

How the results depend on the processing

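Of the named members' fold changes, 3 turned direction outside the settings that leave out 1 embryo: within letter A, Cobl in EPI was −0.0825 and Igf2r in EPI 0.0242 (log2), and with the embryo number as a replicate block Tssc4 in PrE was −0.28. The cause was not tested. Counts of members called moved as follows. DESeq2 called 1 in EPI and 1 in PrE between the genotypes, against 1.58% and 1.4% of all genes. Between EPI and PrE it called 4 in MUT, against 646 of 10317 genes, and 5 in WT, against 5.92%. The 5 in WT include Pon2, whose direction was set by the filter. DESeq2 called 4 between EPI and ICM in WT, against 8.65% of all genes. Between PrE and ICM it called 4 in MUT, against 5.01%, and 5 in WT, against 1192 of 12287 genes. Limma-trend called 1 in MUT between EPI and PrE, against 321 of 10698 genes, and 13 in WT between EPI and ICM, against 29%. Between PrE and ICM it called 1 in MUT, against 5.23%, and 7 in WT, against 2071 of 13190 genes. Under limma-trend the median log2 fold change of all genes in the stage comparisons was 0.54 to 0.68. Without the low-count filter 1 was called between EPI and PrE in MUT and in WT, and 1 between EPI and ICM in WT. Of all genes, 173 of 20117 in MUT and 32 of 21530 in WT were called between EPI and PrE. Between EPI and ICM in WT 85 of 24564 were called. With sex as a covariate 2 were called in PrE between genotypes, Ube3a and Zfp64, and 217 of all genes; all MUT embryos were male, so this fit sets them against WT embryo 3 alone, a single cell with 0.765 CPM of Ube3a and 0.229 CPM of Zfp64. Without sums of 1 cell 1 was called between EPI and PrE in MUT, 0 between EPI and ICM in MUT and 0 between PrE and ICM in WT. Of all genes, 153 of 11632, 0 of 12705 and 0 of 14840 were called there. Leaving out 1 embryo at a time gave 0 to 1 calls in each of EPI against PrE in MUT, EPI against ICM in MUT, PrE against ICM in MUT and PrE against ICM in WT. In the same order, 71 to 91, 0 to 17, 14 to 169 and 0 to 42 of all genes were called. Without MUT embryo 10 Snrpn was the 1 call between PrE and ICM in MUT (adjusted p = 0.0472), against 169 of 11236 genes.

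With the embryo as a paired replicate block, 1 member, Cobl, was called between EPI and PrE in MUT, against 74 of 10698 genes. MUT and WT embryos share only a number, with correlations of 0.143 and −0.011 in EPI and 0.054 and −0.037 in PrE, and the block on that number gave a Snrpn log2 fold change of 0.72 in EPI. The part of depth was not tested.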
